A study of Mus musculus with 9 samples.

Results

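RNA from 9 mouse lymphomas was sequenced, 1 library per tumor, and 10 immediate early genes were followed across them: Fos, Fosb, Jun, Junb, Egr1, Ier2, Dusp1, Atf3, Nr4a1 and Zfp36. The genes were taken by symbol from a table of 41128 genes, and all 10 had a row and passed edgeR's filter on low counts, which kept 14057 genes. All 9 tumors carried the IµBcl6 transgene, which drives constitutive Bcl6 expression in the B lineage, together with Cγ1-Cre, which is active from entry into the germinal center onward. The 3 Bcl6 tumors were Smc3 wt/wt, and the 6 Smc3/Bcl6 tumors were Smc3 wt/-, with 1 allele of the cohesin subunit gene deleted by Cre. By the labels, replicate 1 of either genotype came from the mesenteric lymph node and the remaining 7 tumors from a lymph node that they do not specify, whereas the study describes the tumors of both genotypes as mesenteric; no age is given. The genes were chosen on the basis of the genotype fold change of Fos, whose sign had differed between fits of these data, and of the joint movement of the genes across the tumors, so the genotype differences and correlations of the 10 genes are given as descriptions. Where a fit over all genes is used, the number of the 10 past its thresholds stands beside the share of all genes past them, and nothing is read from that number, since the rule used the same contrast.

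Immediate early genes are switched on within minutes of a stimulus by transcription factors that are already present in the cell, such as serum response factor and CREB, without the need for new protein. Many of them encode transcription factors themselves, and others encode proteins that shut the signal or the transcripts down again. In B cells they are induced by the antigen receptor and by mitogens, and many are also induced by stress. Their transcripts are short-lived, in part through AU-rich elements in the 3' untranslated region.

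In GENCODE M21 (GRCm38), Fos (ENSMUSG00000021250.8 in the count table) lies on chromosome 12 from 85473890 to 85477273 and Fosb (ENSMUSG00000003545.2) on chromosome 7 from 19302696 to 19310051. Jun (ENSMUSG00000052684.4) lies on chromosome 4 from 95049034 to 95052222, Junb (ENSMUSG00000052837.5) on chromosome 8 from 84974484 to 84978718 and Ier2 (ENSMUSG00000053560.4) on the same chromosome from 84661331 to 84662852. Dusp1 (ENSMUSG00000024190.6) lies on chromosome 17 from 26505590 to 26562128 and Zfp36 (ENSMUSG00000044786.5) on chromosome 7 from 28376784 to 28380253. Atf3 (ENSMUSG00000026628.8) lies on chromosome 1 from 191170296 to 191218039, Nr4a1 (ENSMUSG00000023034.6) on chromosome 15 from 101254269 to 101274795, and Egr1 has the identifier ENSMUSG00000038418.7. Jun, Zfp36, Junb and Dusp1 overlap a gene on the opposite strand (Junos, Gm44710, Prdx2 and Ergic1), Dusp1 also overlaps genes on its own strand, and Atf3 overlaps the small RNA gene Gm24748. The sources used here do not say whether counting used strand, so reads of these pairs may not have been told apart.

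The promoters of 4 of the genes are shown because these genes differed in how they varied between tumors, Fos and Dusp1 together and Junb and Nr4a1 together. Each sequence is the 250 bases upstream of the RefSeq transcription start (GRCm38.p6), 5' to 3' on the strand of the gene. Capitals mark TGACG on either strand (CGTCA where it reads on the other strand), the core of the cAMP response element that CREB binds, and in Dusp1 also the full element TGACGTCA.
Fos, chr12:85473640-85473889, plus strand: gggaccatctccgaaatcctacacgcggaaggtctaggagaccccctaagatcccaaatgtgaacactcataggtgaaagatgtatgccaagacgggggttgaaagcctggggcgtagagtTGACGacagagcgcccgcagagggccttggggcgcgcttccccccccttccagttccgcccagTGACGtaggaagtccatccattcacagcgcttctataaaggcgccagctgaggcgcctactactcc
Dusp1, chr17:26508473-26508722, minus strand: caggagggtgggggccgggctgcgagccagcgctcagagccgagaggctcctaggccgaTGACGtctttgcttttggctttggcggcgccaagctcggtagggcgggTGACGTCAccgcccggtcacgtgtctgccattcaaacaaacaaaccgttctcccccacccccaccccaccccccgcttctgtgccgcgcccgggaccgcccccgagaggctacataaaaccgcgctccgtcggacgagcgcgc
Junb, chr8:84978749-84978998, minus strand: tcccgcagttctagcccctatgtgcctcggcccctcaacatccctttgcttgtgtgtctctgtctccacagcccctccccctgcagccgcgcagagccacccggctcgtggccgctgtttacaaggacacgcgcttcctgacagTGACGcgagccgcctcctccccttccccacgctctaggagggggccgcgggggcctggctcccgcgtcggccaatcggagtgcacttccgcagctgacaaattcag
Nr4a1, chr15:101266596-101266845, plus strand: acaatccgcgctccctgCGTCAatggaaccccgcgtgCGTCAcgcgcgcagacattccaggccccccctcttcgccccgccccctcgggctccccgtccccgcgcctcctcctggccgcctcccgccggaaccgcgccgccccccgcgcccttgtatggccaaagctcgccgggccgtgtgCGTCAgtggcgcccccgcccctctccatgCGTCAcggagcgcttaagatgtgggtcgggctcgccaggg
TGACG was found in 6 of the 8 promoters of these genes that were matched, against 17.85% of 32544 mouse promoters of the same length. In Fos it began at -129 and -66 relative to the start site, in Fosb at -60, in Junb at -106 and in Atf3 at -7. Nr4a1 had 4 matches and Dusp1 had 3, and the matches of Dusp1 at -143 and -140 are the overlapping arms of 1 full element, a sequence held by 1.55% of promoters. Promoters with 2 or more matches made up 3.92% of the total. Jun and Zfp36 had none in this window. The CArG box, which serum response factor binds, was matched in Zfp36 alone, at -58, against 1.48% of promoters, and the AP-1 site TGANTCA was matched in 0 of the 8, against 6.73%. Only the 250 bases upstream and exact matches to each pattern were searched. Sites farther away or with a variant sequence were not counted, so a promoter without a match may still hold such a site. The promoters of Egr1 and Ier2 were not among those matched.

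The AU-rich heptamer TATTTAT, which Zfp36 protein binds, was present at least once in the 3' untranslated region of 6 of the 10 genes, with 3 copies each in Dusp1 and Zfp36, 2 in Fos and 1 each in Fosb, Jun and Atf3. Of 20755 protein-coding genes, 26.08% had at least 1 copy and 9.59% at least 2. Junb, Egr1, Ier2 and Nr4a1 had none. Sites of the genes with several copies, and the site of Jun, are shown with 10 bases on either side and the heptamer in capitals (GENCODE M21, GRCm38).
Fos, chr12:85477104-85477130, plus strand: gttttcaattTATTTATtaagatggat
Fos, chr12:85477128-85477154, plus strand: gattctcagaTATTTATatttttattt
Dusp1, chr17:26506160-26506186, minus strand: agctggtcctTATTTATttaacacccc
Dusp1, chr17:26505871-26505897, minus strand: tttttaccttTATTTATttttgtgtag
Zfp36, chr7:28376967-28376993, minus strand: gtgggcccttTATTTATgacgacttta
Zfp36, chr7:28376952-28376978, minus strand: atgacgacttTATTTATtgtattaaga
Jun, chr4:95049080-95049106, minus strand: tgcttgtgcaTATTTATaatagcgttc
The second Fos site begins 24 bases downstream of the first, and the pair of Zfp36 sites shown begin 15 bases apart. All of these are matches of letters in the reference and were not measured in the tumors.

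The total count per library ranged from 10156728 to 17774577 with a median of 14228612. Levels are given as CPM, counts scaled to the library by TMM. For Smc3, the deleted gene, they were 27.9 to 126 CPM over the 9 tumors, with a genotype log2 fold change of -0.19 (standard error 0.38, edgeR adjusted p = 1). The summed level of 4 B-cell markers (Cd79a, Cd79b, Ms4a1 and Pax5) was between 1360 and 6236 CPM in all tumors, and that of 5 T-cell markers between 24.1 and 1552 CPM. In bulk samples, fewer cells of a type and less RNA per cell cannot be told apart. Smc3/Bcl6 tumor 2 stood apart in that its counts fell with gene length (Spearman's rho of the deviation from the 9-tumor mean with exon length -0.47, against -0.03 to 0.27 in the other tumors). In the 10 genes themselves, Smc3/Bcl6 tumor 4 stood apart.

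Of the 4 AP-1 genes, Fos, Fosb and Jun had the widest ranges over tumors of all 10 genes, and Junb one of the narrower ones. Fos, which pairs with Jun proteins to form the transcription factor AP-1, had 416, 146 and 178 CPM in Bcl6 tumors 1, 2 and 3. In Smc3/Bcl6 tumors 1 to 6 it had 257, 8.78, 32.0, 1457, 50.6 and 19.8 CPM. The highest value lay in Smc3/Bcl6 tumor 4 and the lowest in Smc3/Bcl6 tumor 2, so the Bcl6 tumors fell inside the range of the other genotype. The highest Fos level was 166 times the lowest over 9 tumors, and 47.4 times without Smc3/Bcl6 tumor 4.

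Fosb, a Fos relative that is expressed at low levels at rest, had 11.8, 2.48 and 1.98 CPM in the Bcl6 tumors. In Smc3/Bcl6 tumors 1 to 6 it had 5.83, 0, 1.67, 57.0, 1.58 and 1.47 CPM. In Smc3/Bcl6 tumor 2 no read was counted, which allows up to 0.317 CPM at 3 counts in that library, so Smc3/Bcl6 tumor 4 was at least 179-fold higher; this limit covers counting error only. Fosb followed the order of Fos at the top, with Smc3/Bcl6 tumor 4 first, Bcl6 tumor 1 next and Smc3/Bcl6 tumor 1 after it.

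Jun, the principal partner of Fos, had 572, 252 and 201 CPM in the Bcl6 tumors. Smc3/Bcl6 tumors 1 to 6 had 410, 34.7, 122, 1733, 174 and 146 CPM. The same 3 tumors were highest for Jun, and Smc3/Bcl6 tumor 2 was again lowest. Junb, a Jun protein that competes with Jun at many targets, had 262, 370 and 306 CPM in the Bcl6 tumors. For Smc3/Bcl6 tumors 1 to 6 the values were 148, 359, 262, 863, 194 and 142 CPM. Smc3/Bcl6 tumor 4 was highest here too, but Smc3/Bcl6 tumor 2 was close behind the highest Bcl6 tumor and Smc3/Bcl6 tumor 1 was among the lowest. The ratio of Fos to Junb, both per kilobase of exon, was therefore 1.56 in Bcl6 tumor 1, 1.70 in Smc3/Bcl6 tumor 1 and 1.65 in Smc3/Bcl6 tumor 4, between 0.119 and 0.568 in 5 other tumors, and 0.024 in Smc3/Bcl6 tumor 2.

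**Figure D1:**
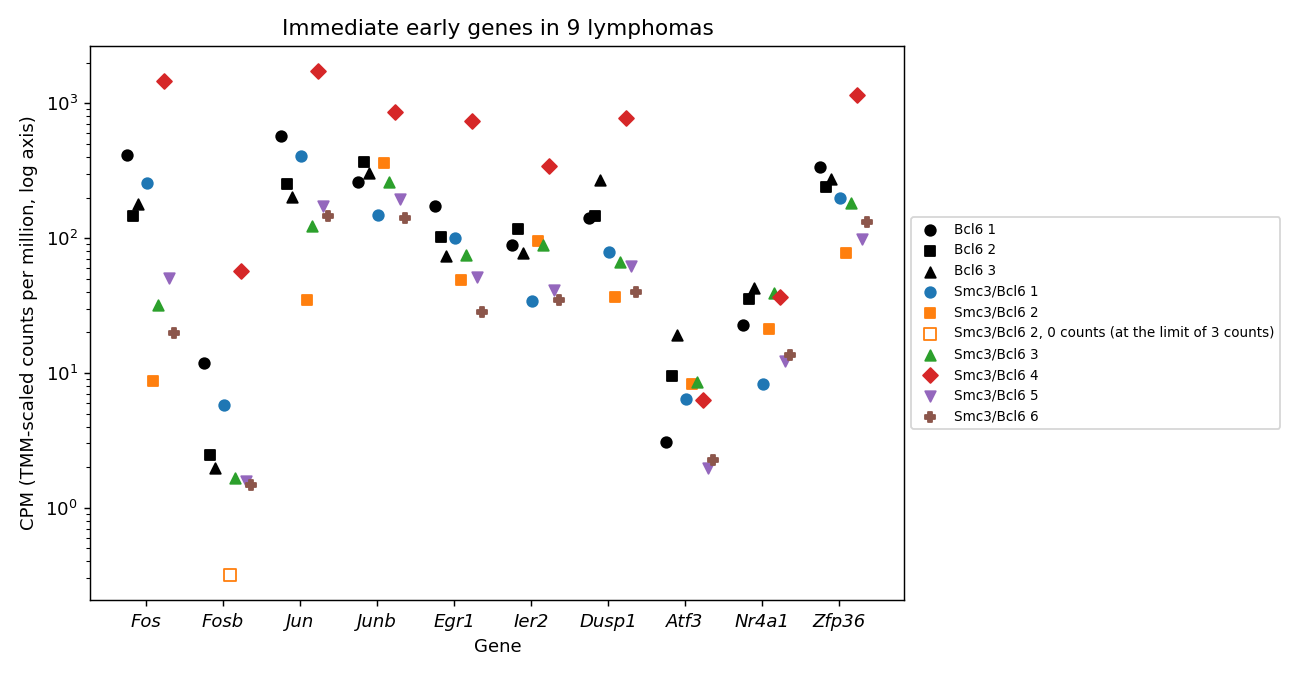
CPM (counts scaled to the library by TMM, log axis) of the 10 immediate early genes, 1 point per tumor, with Bcl6 tumors in black and Smc3/Bcl6 tumors in color. Smc3/Bcl6 tumor 4 (red diamonds) is highest for 8 genes but not for Atf3 and Nr4a1, and the open square marks Fosb in Smc3/Bcl6 tumor 2, where 0 reads were counted, at the limit of 0.317 CPM that 3 counts give.

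Of the other transcription factors, Egr1 resembled Fos, whereas Nr4a1 and Atf3 did not. Egr1, a zinc finger factor induced downstream of ERK signaling, had 174, 102 and 73.8 CPM in the Bcl6 tumors. In the Smc3/Bcl6 tumors it ranged from 28.3 to 739 CPM with a median of 63.2, and Smc3/Bcl6 tumor 4 exceeded the next highest tumor 4.26-fold. Nr4a1, an orphan nuclear receptor induced by antigen receptor signaling, had 22.7, 35.4 and 42.8 CPM in the Bcl6 tumors. In Smc3/Bcl6 tumors 1 to 6 Nr4a1 had 8.33, 21.1, 39.5, 36.5, 12.2 and 13.7 CPM, so that Bcl6 tumor 3 was highest and Smc3/Bcl6 tumor 4 came after Bcl6 tumor 3 and Smc3/Bcl6 tumor 3. Atf3, a stress-induced factor of the ATF/CREB family, had 3.09, 9.45 and 19.1 CPM in the Bcl6 tumors. In the Smc3/Bcl6 tumors Atf3 ranged from 1.97 to 8.62 CPM with a median of 6.35, and Smc3/Bcl6 tumor 4, at 6.32 CPM, was at 0.864 times the median of the other 8 tumors.

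Over all 9 tumors the genotypes overlapped for the feedback genes Dusp1 and Zfp36. Dusp1, a phosphatase that inactivates MAP kinases, had 142, 146 and 271 CPM in the Bcl6 tumors. In Smc3/Bcl6 tumors 1 to 6 it had 78.5, 36.9, 66.2, 774, 62.0 and 39.8 CPM. Zfp36, which binds AU-rich elements and promotes decay of the transcripts that carry them, had 335, 238 and 274 CPM in the Bcl6 tumors. For Zfp36, Smc3/Bcl6 tumors 1 to 6 had 199, 77.3, 182, 1155, 98.8 and 131 CPM. For both genes every Bcl6 tumor lay above 5 Smc3/Bcl6 tumors and below Smc3/Bcl6 tumor 4. With Smc3/Bcl6 tumor 4 left out, all Bcl6 tumors lay above the other Smc3/Bcl6 tumors for 0.477% of 14057 genes. Ier2, a small nuclear protein of the early response, had 89.2, 117 and 77.4 CPM in the Bcl6 tumors. In the Smc3/Bcl6 tumors Ier2 ranged from 34 to 345 CPM with a median of 64.8, and the groups overlapped.

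Per kilobase of exon, the median level over 9 tumors was highest for Junb (114 CPM per kb), followed by Jun (63.1), Fos (61.9), Ier2 (58.1), Zfp36 (57.3), Dusp1 (23.7), Egr1 (16.7), Nr4a1 (6.46), Atf3 (2.96) and Fosb (0.318). The ranges over tumors of all neighbors in this order overlapped. The 10 genes together took 0.716% of the scaled counts in Smc3/Bcl6 tumor 4 and between 0.0559% and 0.203% in the other 8 tumors.

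Ranked by the mean log2 CPM of the 10 genes (prior count 2), Smc3/Bcl6 tumor 4 came first at 8.25. The 3 Bcl6 tumors followed at 6.51, 6.28 and 6.21, and Smc3/Bcl6 tumors 1, 3, 5, 6 and 2 came after them at 5.80, 5.55, 4.98, 4.67 and 4.51. Smc3/Bcl6 tumor 4 exceeded the median of the other 8 tumors 31.2-fold for Fosb, 14.8-fold for Fos, 10.7-fold for Dusp1, 9.95-fold for Egr1 and 9.23-fold for Jun. The excess was 6.06-fold for Zfp36, 4.16-fold for Ier2, 3.29-fold for Junb and 1.67-fold for Nr4a1. Ranked among all 14057 genes by this excess on the log2 scale, Fosb was number 86, Fos 165, Dusp1 240, Egr1 256, Jun 277, Zfp36 419, Ier2 611, Junb 846, Nr4a1 2671 and Atf3 8405. The same tumor also had the highest summed level of the 5 erythroid markers (10653 CPM, against 36.3 to 4087 in the others), the 4 B-cell markers (6236 against 1360 to 4714 CPM) and the 4 endothelial markers (338 against 21.9 to 189 CPM), and none of these markers was at 0 in it. Its neutrophil markers (7 genes) summed to 708 CPM, second to 1736 CPM in Bcl6 tumor 3, and its macrophage markers (6 genes in the table) to 2008 CPM, within the range of 145 to 2965 CPM of the others. Its plasma cell, T-cell and stromal markers, at 587, 74.1 and 11.9 CPM, lay within the ranges of the others. The part of these cells in the levels of the 10 genes was not tested. Its total count, 14647914, lay within the range of the others.

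At the other end, Smc3/Bcl6 tumor 2 was the lowest tumor for 5 genes (Fos, Fosb, Jun, Dusp1 and Zfp36), while Smc3/Bcl6 tumor 6 was among the 3 lowest for all 10 and Smc3/Bcl6 tumor 5 for 8. In Smc3/Bcl6 tumor 2, the deviation from the 9-tumor mean of log2 CPM was -3.51 for Fos, -2.76 for Jun and -1.46 for Zfp36, whereas it was 0.37 for Junb and 0.28 for Ier2. The length trend of that library at the exon lengths of the 10 genes amounted to between -0.03 and 0.10 on the same scale.

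Most of the 10 genes varied more between tumors than a typical gene. The SD of log2 CPM over 9 tumors was 2.36 for Fosb, 2.32 for Fos and 1.57 for Jun, above that of 98.2%, 98.1% and 91.4% of all tested genes. It was 0.79 for Junb, 0.85 for Nr4a1 and 1.04 each for Ier2 and Atf3, above 63.5%, 67.3%, 77.8% and 77.5%. The difference between the highest and lowest tumor had a median over the 10 genes of 4.14 on the log2 scale, also with Fosb at its limit of 3 counts, against 2.06 over all tested genes, and 2.74 without Smc3/Bcl6 tumor 4. The SD within the Smc3/Bcl6 tumors exceeded that within the Bcl6 tumors for 9 genes (2.69 against 0.80 for Fos, 1.39 against 0.25 for Zfp36), the exception being Atf3 (0.91 against 1.30). Without Smc3/Bcl6 tumor 4 it exceeded it for 8 genes, with 1.81 for Fos and 0.58 for Zfp36, whereas Dusp1 was then at 0.48 against 0.53 in the Bcl6 tumors. With 3 and 6 tumors, these SDs are themselves imprecise. The share of all tested genes with the larger SD in the Smc3/Bcl6 tumors is not given here, so nothing is read from these counts.

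The genes moved together in part. Over the 45 pairs, the median Pearson r of log2 CPM was 0.72 (9 tumors, range -0.12 to 0.99), against -0.005 over all pairs of tested genes, and r was above 0.5 in 57.8% of the pairs, against 18.9% of all pairs. The median Spearman's rho was 0.53, and the median r was 0.52 without Smc3/Bcl6 tumor 4 and 0.61 without the 2 tumors farthest from the median level. All values of r share the same 9 libraries and their scaling. After the values were seen, 2 sets could be told apart. Fos, Fosb, Jun, Egr1, Dusp1 and Zfp36 had r between 0.78 and 0.99 with each other (15 pairs, median 0.90, and 0.80 without Smc3/Bcl6 tumor 4), with Fosb and Jun closest at 0.99. Junb, Ier2, Nr4a1 and Atf3 had a median r of 0.68 with each other and 0.73 without Smc3/Bcl6 tumor 4, with Junb and Ier2 at 0.98.

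Between the sets the median r was 0.41 over 24 pairs and 0.14 without Smc3/Bcl6 tumor 4. Fos and Junb had r = 0.47 over 9 tumors and -0.03 over 8, and Jun and Junb had 0.38 and -0.32. Egr1 and Dusp1 had r of 0.76 and 0.74 with Junb over 9 tumors, and 0.33 and 0.39 over 8. Zfp36 was the gene closest to the mean of the other 9 (r = 0.98, and 0.95 without Smc3/Bcl6 tumor 4), and Atf3 the farthest (r = 0.19 and 0.26). By sequence, the first set held 5 of the 6 genes with TATTTAT, the exception being Atf3, and TGACG was present in both sets (Fos, Fosb and Dusp1 in one, Junb, Atf3 and Nr4a1 in the other). The sets were drawn from these same correlations, and a link between sequence and joint movement was not tested.

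**Figure D2:**
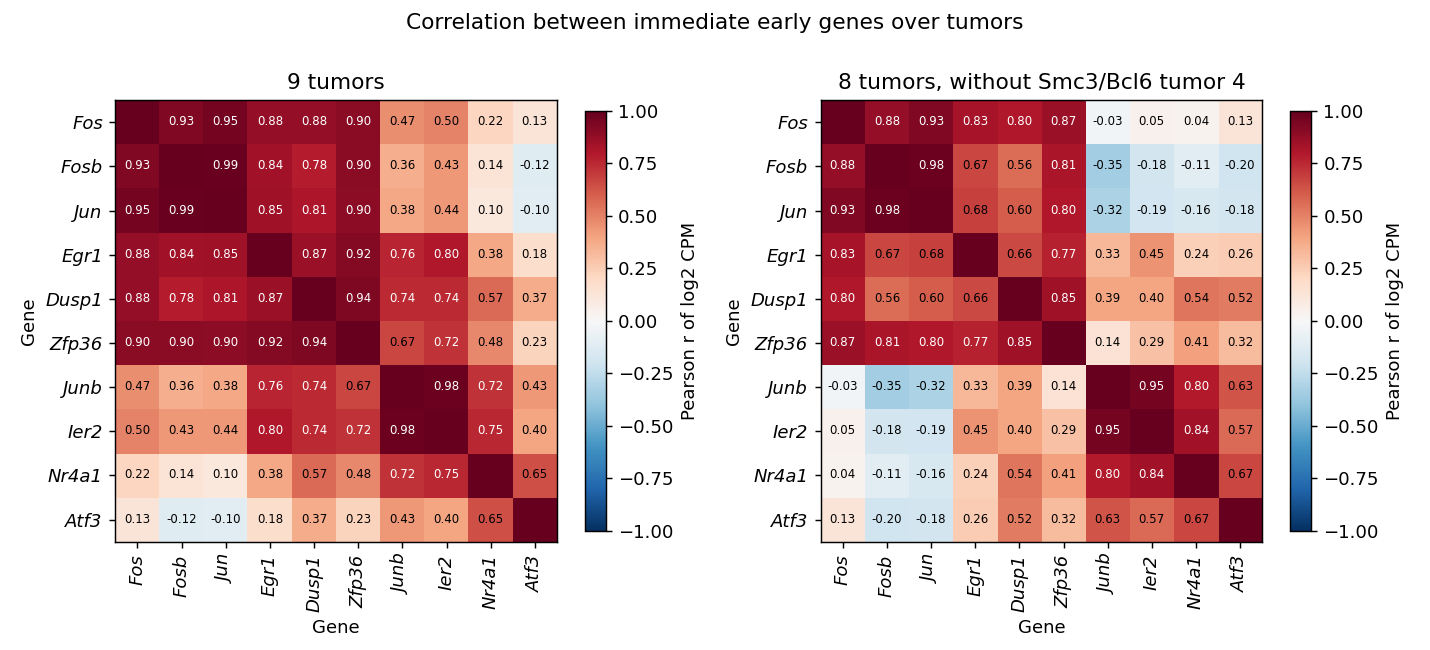
Pearson r of log2 CPM between each pair of the 10 genes over 9 tumors (left) and over 8 tumors without Smc3/Bcl6 tumor 4 (right), on a color scale from -1 to 1. The upper left square of 6 genes stays at 0.56 or above in both panels, whereas Fos with Junb goes from 0.47 to -0.03.

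Over all 9 tumors the genotypes overlapped for each of the 10 genes, as they did for most genes (0.484% of 14057 did not overlap). The log2 fold change of Smc3/Bcl6 over Bcl6 was 0.30 for Fos (standard error 1.42), 1.05 for Fosb (1.61), 0.35 for Jun (1.04), 0.07 for Junb (0.57), 0.58 for Egr1 (1.00), 0.17 for Ier2 (0.73) and 0.12 for Zfp36 (0.82). It was -0.08 for Dusp1 (0.99), -0.62 for Nr4a1 (0.50) and -0.90 for Atf3 (0.63). Of the 10 genes, 0 passed the thresholds of the study (unadjusted p below 0.1 and absolute log2 fold change above 0.56), which 2.15% of the 14057 genes passed, and 0.0% of the table reached an adjusted p of 0.05 in edgeR (79 genes had an unadjusted p below 0.05).

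The sign differed between the means of CPM and the means of log2 CPM for all genes but Dusp1, Atf3 and Nr4a1. For those, both means were higher in the Bcl6 tumors. The mean of Fos was 247 ± 148 CPM in the Bcl6 genotype (SD, n = 3) and 304 ± 572 CPM in the Smc3/Bcl6 genotype (SD, n = 6), or 73.6 ± 104 CPM with Smc3/Bcl6 tumor 4 left out (SD, n = 5). The mean of log2 CPM of Fos was higher in the Bcl6 tumors by 1.68, that of Dusp1 by 1.07, that of Zfp36 by 0.59 and that of Junb by 0.24. It was higher in the Bcl6 tumors for all 10 genes, and the share of all genes in that direction is not given here. The fold change of edgeR compares mean counts, to which Smc3/Bcl6 tumor 4 contributed most for 8 of the genes. In limma without weights, which works on log2 values, the fold change was negative for all 10 genes, while it was positive for 45.1% of all tested genes. In that fit 0 of the 10 were past the same thresholds, against 1.06% of all genes past them and lower. With a quality weight per tumor added, 5 of the 10 (Junb, Ier2, Dusp1, Atf3 and Nr4a1) were past the same thresholds, all lower in Smc3/Bcl6, against 7.13% of all genes past them in that direction.

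When Smc3/Bcl6 tumor 4 was left out, edgeR's log2 fold change was negative for all 10 genes, from -1.75 for Dusp1 (standard error 0.36) and -1.73 for Fos (0.95) to -0.53 for Junb (0.34), while it was negative for 48.4% of all genes tested without that tumor. Dusp1, Zfp36 (-1.04, standard error 0.34) and Egr1 (-0.92, standard error 0.41) were then past the thresholds, against 1.08% of 13762 genes that were past them and lower. Dusp1 had 186 ± 73.3 CPM (SD, n = 3) in Bcl6 tumors against 56.7 ± 17.8 CPM (SD, n = 5), and Zfp36 282 ± 48.7 against 138 ± 52.2 CPM. For these 2 genes all Bcl6 tumors lay above all 5 remaining Smc3/Bcl6 tumors, as they did for 0.477% of the genes. Smc3/Bcl6 tumor 4 was singled out by its high levels of the 10 genes themselves. The shares of all genes without it are therefore not a like comparison, and nothing is read from them.

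Replicate numbers 1 to 3 occur in both genotypes, and the labels do not say what tumors of the same number share. When these 6 tumors were fitted with a replicate block, which leaves out Smc3/Bcl6 tumors 4, 5 and 6, the log2 fold change was again negative for all 10 genes, as it was for 56.2% of the genes tested in that fit. It was -2.44 for Fos (standard error 0.73), -1.66 for Dusp1 (0.42), -1.35 for Jun (0.59), -1.02 for Zfp36 (0.39) and -0.80 for Nr4a1 (0.40), and these 5 were past the thresholds, against 1.9% of 13360 genes past them and lower. Fosb (-1.67, standard error 1.13), Egr1 (-0.64, 0.38), Ier2 (-0.53, 0.41), Junb (-0.40, 0.35) and Atf3 (-0.15, 0.61) were not. Without the block, the same 6 tumors gave -1.31 for Fos (1.12), and 2 genes, Dusp1 (-1.67, 0.46) and Zfp36 (-0.90, 0.43), were past the thresholds, against 0.659% of the genes. On log2 CPM, 7 of the 10 genes were lower in the Smc3/Bcl6 tumor of all 3 same-numbered pairs, against 9.19% of the genes. The difference, Smc3/Bcl6 minus Bcl6, was -0.70, -4.03 and -2.47 for Fos in pairs 1, 2 and 3, and -0.85, -1.98 and -2.03 for Dusp1. The exceptions were Egr1 and Ier2, which were slightly higher in pair 3 (0.02 and 0.19), and Atf3, which was higher in pair 1 (1.01).

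**Figure D3:**
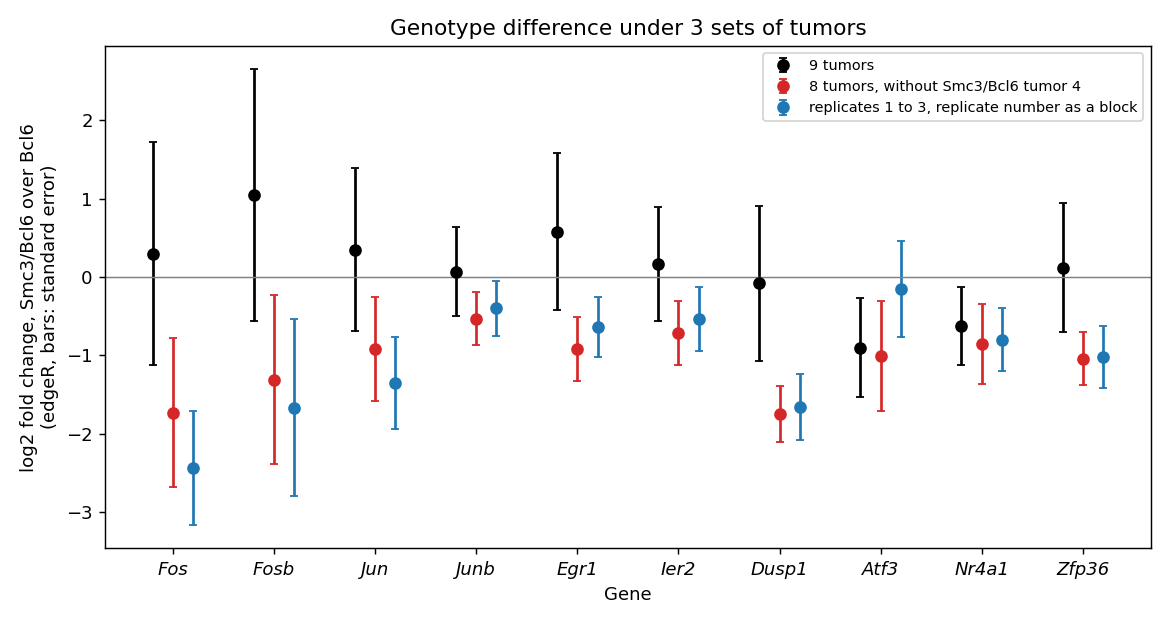
Log2 fold change of Smc3/Bcl6 over Bcl6 from edgeR for the 10 genes, with standard errors as bars, over 9 tumors (black), over 8 tumors without Smc3/Bcl6 tumor 4 (red), and over the 6 tumors of replicates 1 to 3 with a replicate block (blue). Fos goes from 0.30 to -1.73 and -2.44, and Dusp1 from -0.08 to -1.75 and -1.66.

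A list of 40 other early response genes was examined, of which 36 were tested. Fosl1, Jund, Egr2 and Egr4 fell below the filter on low counts. In edgeR over 9 tumors 0 of the 36 were past the thresholds, against 2.15% of all tested genes, and all had an adjusted p of 1. Of the fold changes, 15 were positive and 21 negative (median -0.10, against 0.06 over all tested genes). An unadjusted p below 0.05 was reached by 0 of the 36 in edgeR, DESeq2 and limma without weights. Under limma with quality weights it was reached by 5, against 8.33% of all genes. The most positive log2 fold changes were those of Cyr61 (0.74, standard error 1.57), a matricellular protein, and Maff (0.58, 0.38), a small Maf factor. The most negative were those of Nr4a2 (-1.37, 1.02), a relative of Nr4a1, and Rgs1 (-0.83, 0.61), a regulator of G protein signaling. Without Smc3/Bcl6 tumor 4, 4 of the 35 listed genes tested in that fit were past the thresholds and lower in Smc3/Bcl6, against 1.08% of 13762 genes. They were Rgs2 (-1.09, standard error 0.31), Klf4 (-1.04, 0.49), Cd69 (-0.84, 0.41) and Klf10 (-0.59, 0.30). Smc3/Bcl6 tumor 4 was singled out by its high levels of the 10 immediate early genes, and Rgs2, Klf4 and Cd69 were highest in it. The share of all genes is therefore not a like comparison here either, and nothing is read from it. Under the replicate block, 5 of 35 were past them and lower, against 1.9% of 13360 genes. They were Nr4a2 (-1.22, 0.52), Rgs2 (-1.03, 0.33), Ppp1r15a (-0.85, 0.42), Cd69 (-0.83, 0.42) and Klf10 (-0.74, 0.35). The fit with the block also lacks Smc3/Bcl6 tumor 4, so nothing is read from this number either.

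Smc3/Bcl6 tumor 4 was the highest of the 9 tumors for 17 of these 36 genes and the lowest for 1, Gadd45b, a stress-induced growth arrest gene (43.2 CPM, against 65.4 to 139 in the others). The share of all tested genes that were highest or lowest in this tumor is not given here, so nothing is read from these counts. Ppp1r15a, which restarts translation after stress, had 807 CPM in this tumor and 38.4 to 237 CPM in the others. Klf2, a lymphocyte quiescence factor, had 432 CPM against 23.6 to 183, and Klf4 had 7.92 CPM against 0.624 to 2.47. The correlation with the mean log2 CPM of the 10 genes over 9 tumors was highest for Rgs2 (r = 0.91), Ppp1r15a (0.87), Klf4 (0.85) and Klf2 (0.83), and lowest for Gadd45b (-0.54) and Maff (-0.43), which were at 0.11 and -0.69 without Smc3/Bcl6 tumor 4. The median r over the 36 genes was 0.46, and 0.40 without Smc3/Bcl6 tumor 4.

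Of 23 genes for factors and kinases that act upstream of the early response, all tested, 0 were past the thresholds over 9 tumors, against 2.15% of all genes (median log2 fold change 0.00). An unadjusted p below 0.05 was reached by 0 of them in edgeR, DESeq2 or limma. Among all 14057 genes it was reached by 79 in edgeR, 209 in DESeq2, and 59 without and 1171 with quality weights in limma. With so few genes, a count of 0 is not read as no change. The extremes were Elk4 (0.50, standard error 0.32), a partner of serum response factor, and Map2k2 (0.38, 0.31), a MAP kinase kinase that activates ERK, at the positive end, and Srf, serum response factor itself (-0.26, 0.31), and Rps6ka3 (-0.23, 0.30), a kinase that phosphorylates CREB, at the negative end. Under the replicate block, and without Smc3/Bcl6 tumor 4, 0 of the 23 were past the thresholds, against 299 of 13360 and 339 of 13762 genes. In Smc3/Bcl6 tumor 4 their log2 CPM differed from the median of the other 8 tumors by -0.72 to 1.12, with a median difference of 0.28, against 2.91 for the 10 immediate early genes, 0.72 for the other early response genes and -0.01 for all tested genes. Srf RNA was at 15.4 CPM in this tumor, within the range of 13.7 to 28.0 CPM of the others.

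**Figure D4:**
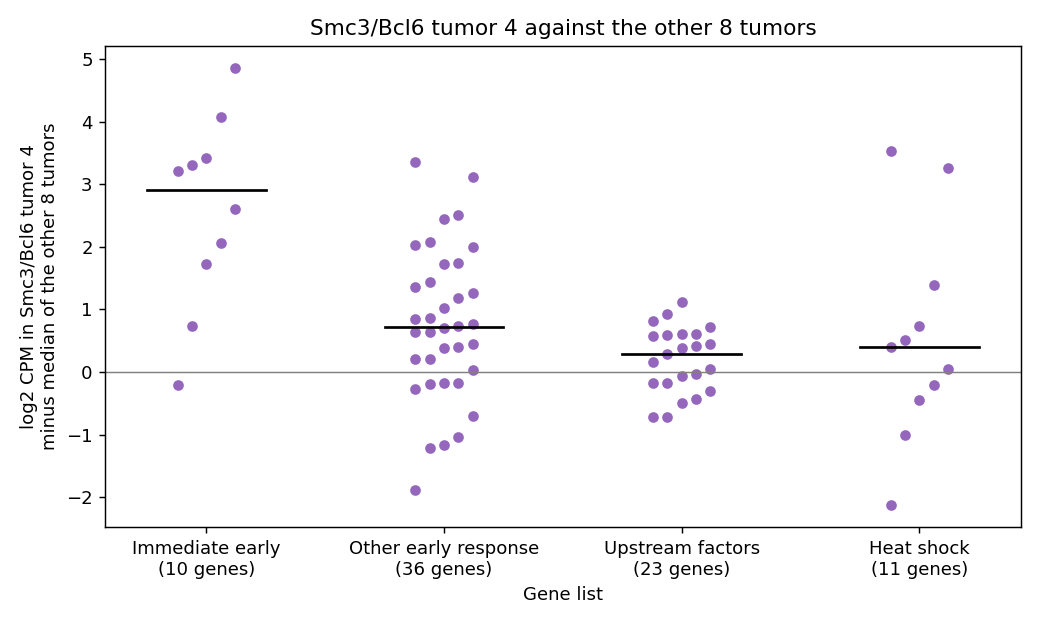
Difference in log2 CPM between Smc3/Bcl6 tumor 4 and the median of the other 8 tumors, 1 point per gene, for the 10 immediate early genes, 36 other early response genes, 23 upstream factors and 11 heat shock genes, with a black line at each median. The medians are 2.91, 0.72, 0.28 and 0.40.

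Heat shock genes, a separate stress response, were examined beside them. Of the 11 genes, all tested, 0 were past the thresholds over 9 tumors in edgeR, against 2.15% of all genes. In the same fit 0 had an unadjusted p below 0.05, against 79 of 14057 genes. Hspe1 (log2 fold change 0.25, standard error 0.54) and Hspb1 (0.23, 0.86) were the most positive and Hsph1 (-0.53, 0.33) and Hspa1b (-0.45, 1.31) the most negative. Under limma with quality weights 1 of the 11 was past the thresholds, against 1644 of 14057 genes. Under the replicate block 2 were past them, Hspa1b (-2.64, 1.22) and Hspa1a (-2.48, 0.87), near-identical copies of the inducible Hsp70 gene whose reads may be split between them, which compares with 1.9% of all genes past the thresholds and lower. Over the same 6 tumors without the block, and over the 8 tumors without Smc3/Bcl6 tumor 4, 0 of the 11 were past them, against 256 of 13360 and 339 of 13762 genes. Hspa1a varied with the early genes across tumors (r = 0.87 with their mean, and 0.90 without Smc3/Bcl6 tumor 4), with 188 CPM in Smc3/Bcl6 tumor 4 and 0.741 to 123 CPM in the others. Bag3, a cochaperone, was instead lowest in Smc3/Bcl6 tumor 4 (4.26 CPM, against 13.4 to 25.4).

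Over all tested genes, the 10 outside the set whose log2 CPM followed the mean of the early genes most closely were Ccdc112 (r = 0.95), a second row of the symbol Tob2, Zfp692, Gm16575 and Actg1 (0.93 each), Ighv14-3, Ptp4a1 and D230025D16Rik (0.92 each), and 9930022D16Rik and Rgs2 (0.91 each). Ccdc112, the second Tob2 row and 9930022D16Rik had only 240, 170 and 139 counts over all tumors together. All 10 genes outside the set were highest in Smc3/Bcl6 tumor 4. The choice by r favored this, since the mean of the early genes was 8.25 in that tumor and at most 6.51 in the others. The size of the excess in this tumor over the median of the others ranged from 1.14-fold for D230025D16Rik to 77.8-fold for Ighv14-3, an immunoglobulin variable segment. Ighv14-3 had 175 CPM in Smc3/Bcl6 tumor 4 and 0.316 to 33.2 CPM in the others. Actg1, cytoplasmic actin, was counted at only 12 CPM in this tumor and 0.533 to 5.01 CPM in the others, and reads shared with its near-identical copies may not have been counted.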

How the data were processed

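RNA-seq of 3 Bcl6 and 6 Smc3/Bcl6 lymphomas was analyzed. The authors made libraries with the TruSeq kit, aligned reads to mm10 and Gencode transcripts with STAR through nf-core/rnaseq, assigned them to genes with featureCounts, and deposited the raw counts per gene, not normalized. The submitters' processing notes name R 4.0.2 and DESeq2 1.28.1. Genotypes and replicate numbers came from the labels, and 0 columns lacked a sample. The labels do not say that each tumor came from a separate mouse, so p-values measure only the spread between these tumors.

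The genotype comparison used edgeR 4.0.16 under R 4.3.3 (TMM scaling, filterByExpr with genotype as the group, a quasi-likelihood fit without a covariate, Benjamini-Hochberg adjustment over all genes tested), under the thresholds of the study (unadjusted p below 0.1, absolute log2 fold change above 0.56). Log2 CPM used a prior count of 2. Depth was 10156728 to 17774577 counts per library. The deviations of same-numbered tumors from their genotype means correlated at 0.443, 0.113 and 0.155 for numbers 1, 2 and 3. Differently numbered tumors were not compared, so these values cannot show that the numbers pair the tumors. The replicate block rests only on the numbers in the labels, which do not say what they pair. Alternatives were DESeq2 1.42.0, limma 3.58.1 with and without quality weights, other normalizations, no filter, the tissue label as a covariate, replicates 1 to 3 with and without the block, a length offset (lowess span 0.3), and each tumor left out.

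The members and lists were chosen with earlier results of these data known. Named were the 10 genes and, from each of 3 lists, the 2 most positive and 2 most negative log2 fold changes and every gene past the thresholds. From the other early response genes, the 4 with the highest and 2 with the lowest r with the members' mean were added, and from all genes the 10 with the highest r, and Smc3. Cd69, Klf10, Bag3 and Hspa1a were named after their values were seen. Promoters came from RefSeq (GRCm38.p6) and gene positions, exon lengths and 3' untranslated regions from GENCODE M21 (GRCm38), both of the build of the counts. The fits were tested on simulated counts. From the list of B-cell markers, 1 gene is not reported here and was left out of the sum.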

Additional observations from a re-analysis of the deposited data

Results flagged for a closer look

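Among the 6 Smc3/Bcl6 tumors, 19 measures (the log2 CPM of each of the 10 genes, their mean, and the summed level of 8 lists of cell-type markers) were searched for a tumor far from the rest, by the gap to the nearest tumor as a share of the whole range (above Dixon's 95% critical value for 6 samples). Chance alone is reckoned to pick out about 1 independent measure in 20. Here 4 of 19 were picked out, but the 10 genes were chosen for their joint movement, and 3 of the 4 concern the same tumor, so the number is not compared with chance. Smc3/Bcl6 tumor 4 stood apart from the other 5 for Dusp1 (gap 0.752 of the range), Zfp36 (0.651) and the mean of the 10 genes (0.656). Smc3/Bcl6 tumor 1 stood apart at the low end for the macrophage markers (0.691), with 145 CPM against 1167 to 2965 CPM in the other 5. Fos, whose lowest tumors were spread more widely, was not picked out.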

How the results depend on the processing

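The count of members past the thresholds was 0 over 9 tumors, and also 0 under DESeq2 (which gave no p for 4 of them), RLE, upper-quartile and library-size scaling, no filter, the length offset, and limma without quality weights (chosen once the data were known). It was 5 under limma with quality weights, 1 with the tissue label as a covariate, 5 with the replicate block and 2 without the block over replicates 1 to 3, 5 with the block and a length offset (added after the data were seen), and 0 to 3 when each tumor was left out (3 without Smc3/Bcl6 tumor 4, 1 each without Bcl6 tumor 1 and Smc3/Bcl6 tumor 3), all of them lower in Smc3/Bcl6. Among all genes tested, 1002 of 14057 were past them and lower under limma with quality weights, and 192 of 14057 with the tissue label. The number was 254 of 13360 with the block, 88 of 13360 without it and 210 of 13284 with the block and the length offset. It was 148 of 13762 without Smc3/Bcl6 tumor 4, 240 of 14637 without Bcl6 tumor 1 and 321 of 13830 without Smc3/Bcl6 tumor 3. The count for the other early response genes, 0 over 9 tumors, was 8 under limma with quality weights, 1 without the filter, 2 with the tissue label, 5 with the block, 1 without it, 4 with the block and the length offset, and 0 to 4 with each tumor left out (4 without Smc3/Bcl6 tumor 4, 3 without Smc3/Bcl6 tumor 3, 1 without Bcl6 tumor 1). Of these, 1 under limma with quality weights and the 1 without the filter were higher in Smc3/Bcl6, as were 642 of 14057 and 576 of 26445 genes. For upstream factors it stayed at 0 except 0 to 1 with each tumor left out (Elk4, 0.61 without Smc3/Bcl6 tumor 3, where 303 of 13830 genes were past the thresholds and higher). Log2 fold changes that changed sign and passed the thresholds were, under the block, -2.44 for Fos, -1.35 for Jun, -1.02 for Zfp36 and -0.85 for Ppp1r15a, with the length offset added -2.49, -1.34, -0.98 and -0.87, over replicates 1 to 3 without the block -0.90 for Zfp36, under limma with quality weights -0.75 for Junb and -0.96 for Ier2, and without Smc3/Bcl6 tumor 4 -0.92 for Egr1, -1.04 for Zfp36 and -1.04 for Klf4. With each tumor left out in turn these ranged from -0.92 to 0.92 for Egr1, -1.04 to 0.33 for Zfp36 and -1.04 to 0.95 for Klf4. The cause was not tested. Over these 21 alternatives Fos was positive in 15 and negative in 6, and Atf3 and Nr4a1 were negative in all 21. Of 11 heat shock genes, 2 were past the thresholds under the block, 1 under limma with quality weights, and 0 without the block or without Smc3/Bcl6 tumor 4. The median pairwise r stayed between 0.52 and 0.76 and the median range between 2.48 and 4.56 on the log2 scale under the alternatives run for each of them, which for r were Spearman's rho, library-size scaling, another prior count, deviations from the genotype means, length residuals, the 2 farthest tumors left out, and each tumor left out. Atf3 and Fosb, at under 20 CPM in most tumors, carry the largest counting error.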
